A study of Mus musculus with 6 samples.

Results

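The untreated DKK cultures of a mouse ESC line were followed from 6 to 12 hours after day 2 of differentiation, that is from day 2.25 to day 2.5. They gave 2 of the 6 arrays in the series, 1 array at each time, and every gene read by a probe set with exactly 1 gene symbol was compared between them. Of 18193 such genes, 14755 were above the low-signal limit (an intensity of 37.2) on at least 1 of the 6 arrays and are described here. The A2.Snail line carries a Snail transgene that doxycycline (dox) switches on, and no dox was given to the DKK cultures. All the cultures grew as embryoid bodies, which are floating cell aggregates, in serum, with DKK1, a secreted inhibitor of Wnt signaling, and without the LIF that keeps ESCs undifferentiated. The DKK + dox cultures differed by 250 ng/mL dox added at day 2, and arrays of both conditions were taken at 6, 12 and 24 hours. Before differentiation the ESCs had been grown on irradiated mouse fibroblasts and passaged once without them. Whether the line is a single clone is not given in the sources used here.

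Mouse ESCs held in LIF resemble the naive cells of the inner cell mass. When LIF is removed they lose a set of naive transcription factors, keep Oct4 (Pou5f1) and Sox2, and pass through a state that resembles the epiblast, the epithelial layer from which the germ layers form. Fgf5, Otx2 and the DNA methyltransferases Dnmt3a and Dnmt3b are commonly used to mark that state. FGF/ERK signaling drives the passage, Nodal signaling sustains the epiblast, and Wnt signaling through beta-catenin takes part both in holding the naive state and in forming the primitive streak.

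With 1 array per time there was no replicate check and no test, so each value below is a difference between a pair of arrays. Values are linear intensities, and a difference is 12 hours minus 6 hours on the scale log2(intensity + 20.6), which understates the change of dim genes. A gene was counted when it differed at least 2-fold, a log2 difference of 1 or more. The arrays held RNA of whole cultures, so fewer cells of a type and less RNA per cell cannot be told apart.

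Between 6 and 12 hours, 674 of 14755 genes (4.57 percent) were at least 2-fold lower and 275 (1.86 percent) at least 2-fold higher. Most of these differences were moderate: 524 of the lower and 217 of the higher genes had a log2 difference under 1.5, while 51 and 9 were at least 4-fold apart. The next interval in the same cultures, from 12 to 24 hours, held 52 lower genes (0.352 percent) and 63 higher genes (0.427 percent). The spread of the differences over all genes was correspondingly wider in the earlier interval, with an SD of 0.52 against 0.28 on the log2 scale. These intervals share the 12-hour array. The 14 housekeeping genes measured showed little difference between 6 and 12 hours, with a median of -0.01 and none 2-fold apart.

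The 6-hour DKK array stood apart in its overall level. Its median intensity was 63.7, against 59.1 on the 6-hour DKK + dox array and 53.5 to 55.6 on the other 4, and 37.5 percent of its probe sets did not exceed the low-signal limit, against 39.0 to 41.3 percent elsewhere. The median difference over all genes was -0.081, and 58.0 percent of genes were lower at 12 hours. Centring each array on its median moved that median by 0.16 and turned the balance to 468 higher and 406 lower genes (53.5 percent higher, against 29.0 percent as deposited). Quantile normalization gave 396 higher and 469 lower (45.8 percent higher). No label names an array batch, and since both 6-hour arrays share their time, a batch at day 2.25 and the passage of time cannot be told apart.

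The excess of lower genes was largest among genes of low and middle signal. Genes were ranked by mean intensity over the 6 arrays and divided into 5 classes of 2951. The dimmest 3 classes held 165, 204 and 196 lower genes against 42, 74 and 86 higher ones, with medians of -0.21, -0.26 and -0.08. Classes 4 and 5, the brightest, held 109 lower and 73 higher genes among 5902, with medians of -0.01 and 0.00. From 12 to 24 hours the same 2 classes held 9 lower genes and 1 higher gene. The wider difference between 6 and 12 hours was therefore also present among well-measured genes. Of the 674 lower genes, 465 were above the low-signal limit on both arrays and 15 read 1 at 12 hours, the lowest value in the table. Of the 275 higher genes, 195 were above the limit on both arrays and 11 read 1 at 6 hours.

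**Figure D1:**
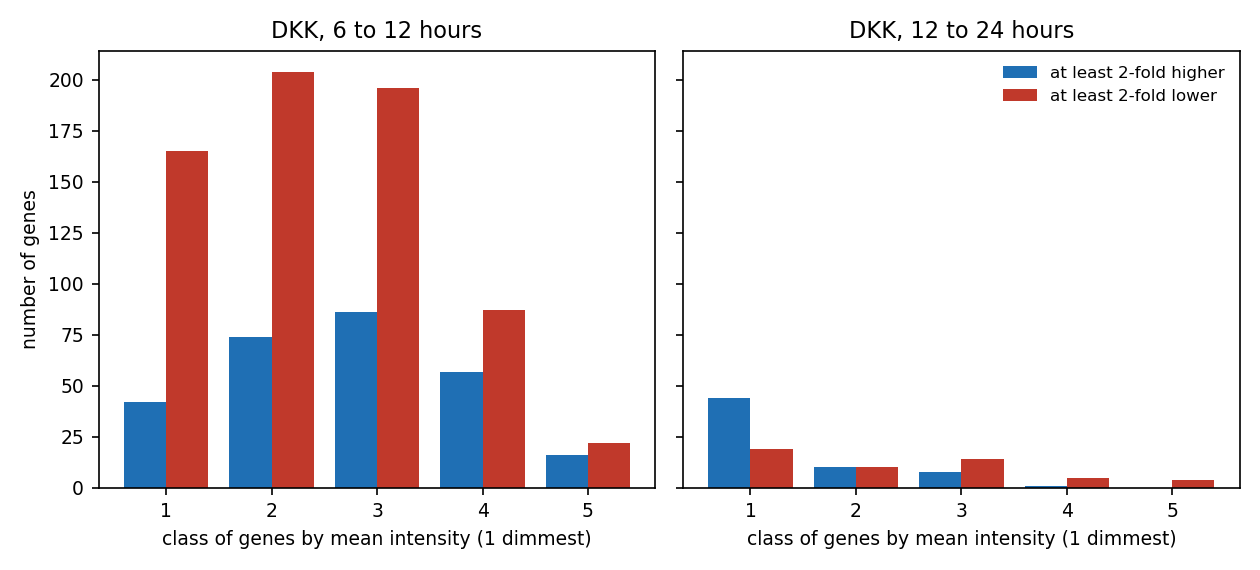
Number of genes at least 2-fold higher or lower in DKK, by class of mean intensity over the 6 arrays (1 is the dimmest, 2951 genes in each), for 6 to 12 hours and for 12 to 24 hours. Classes 1 to 3 hold most of the lower genes of the earlier interval, and the later interval has at most 44 genes each way in a class.

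**Figure D2:**
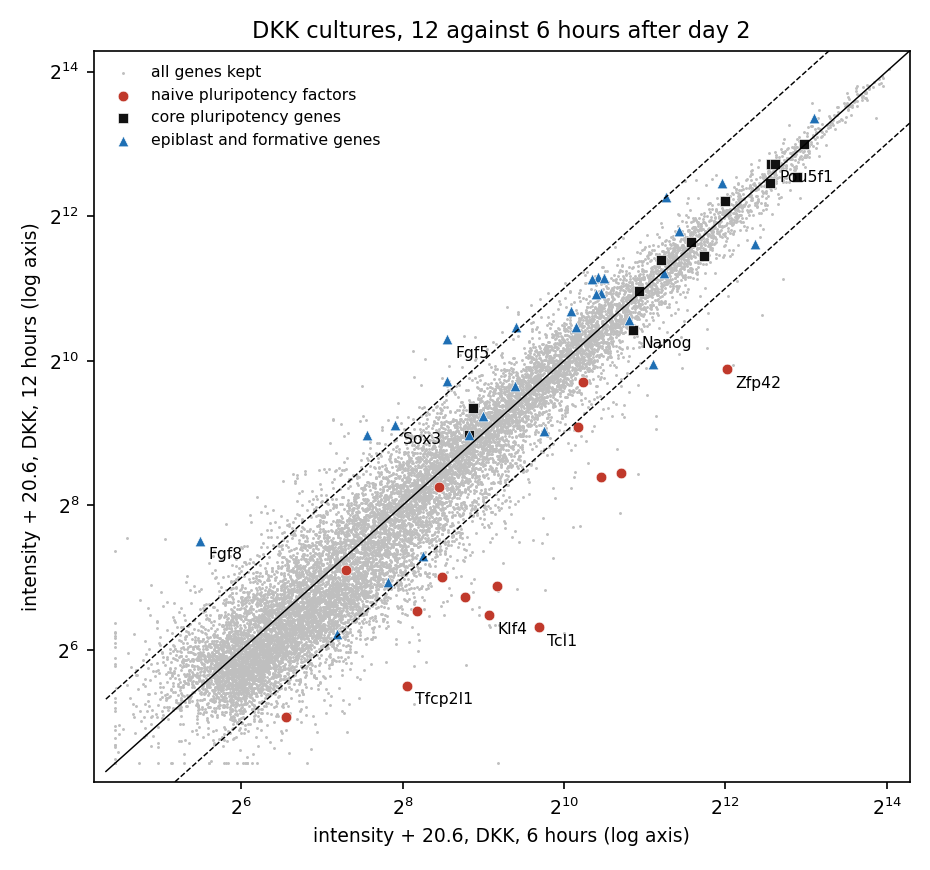
Intensity of each of 14755 genes in DKK at 6 hours (horizontal, log scale after adding 20.6) and at 12 hours (vertical, same scale), with 1 array per axis, equality as a solid line, a 2-fold difference as dashed lines, and naive, core pluripotency and epiblast genes marked. Zfp42, Klf4 and Tcl1 lie below the lower dashed line, Fgf5 and Fgf8 above the upper one, and Pou5f1 close to the solid line.

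Of the 34 gene lists, naive pluripotency factors had the largest median difference. Of 17 measured, 12 were at least 2-fold lower at 12 hours and none higher, with a median of -1.63 against -0.081 over all genes. For this and every list below, the shares over all genes were 4.57 percent lower and 1.86 percent higher. A count near those shares is no result about the list. The median ranged from -2.13 to -1.47 over the 10 alternative ways of processing. Zfp42 (Rex1), a classical marker of the naive state, read 4141 at 6 hours and 927 at 12 hours (log2 difference -2.13), and it read 496 at 24 hours. Klf4, a Krüppel-like factor of the naive network, read 518, 69.0 and 38.1 at the 3 times, and its relatives Klf2 and Klf5 differed by -2.05 and -2.07 from 6 to 12 hours. Tcl1, a coactivator of Akt abundant in ESCs, went from 805 to 59.3, a difference of -3.37. The median of the list from 12 to 24 hours was smaller, at -0.48.

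The 250 bases before the start of transcription of Zfp42, Klf4 and Tcl1 are shown because these genes had large differences from bright 6-hour signals. The sequences are from RefSeq on GRCm38.p6, read 5′ to 3′ on the strand of the gene, and capitals mark every match on either strand to the motifs searched (GGGTGTG and GGGCGGG of the Klf and Sp type, AAGGTCA of the Esrrb type, the E-box CACGTG and the CRE TGACGTC), where neighbouring matches can share bases. Zfp42 is at chr8:43307010-43307259 and Klf4 at chr4:55532476-55532725, both on the minus strand, as is Tcl1 at chr12:105222738-105222987.
Zfp42: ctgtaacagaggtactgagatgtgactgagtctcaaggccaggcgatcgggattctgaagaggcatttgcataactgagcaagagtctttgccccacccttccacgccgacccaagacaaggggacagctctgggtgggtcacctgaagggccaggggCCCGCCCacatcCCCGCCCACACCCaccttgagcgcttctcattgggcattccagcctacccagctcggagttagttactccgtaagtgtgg
Klf4: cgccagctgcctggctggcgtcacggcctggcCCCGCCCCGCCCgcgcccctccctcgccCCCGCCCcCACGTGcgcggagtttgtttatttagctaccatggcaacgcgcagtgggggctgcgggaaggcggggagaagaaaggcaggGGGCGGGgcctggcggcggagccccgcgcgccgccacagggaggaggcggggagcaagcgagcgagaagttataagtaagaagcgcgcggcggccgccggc
Tcl1: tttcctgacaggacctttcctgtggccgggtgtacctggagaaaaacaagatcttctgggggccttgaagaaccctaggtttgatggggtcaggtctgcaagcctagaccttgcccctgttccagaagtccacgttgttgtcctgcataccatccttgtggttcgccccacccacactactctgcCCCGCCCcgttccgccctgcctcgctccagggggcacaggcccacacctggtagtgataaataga
The Zfp42 window held 2 GC boxes and 1 GGGTGTG, all on the opposite strand. The Klf4 window held GC boxes on both strands and 1 E-box, and the Tcl1 window held 1 GC box.

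Further naive factors were also lower. Tfcp2l1, a transcription factor of the naive network, went from 245 to 24.9 (-2.54). Nr5a2 and Nr0b1, nuclear receptors of the same network, went from 558 to 97.7 (-2.29) and from 1651 to 328 (-2.26). Prdm14, which represses differentiation and DNA methylation genes, was dim throughout, at 73.5 and 13.1. Zfp57, which protects imprinted methylation, differed by -1.63, Gbx2 by -1.48 and the cell cycle factor Mybl2 by -1.10. The 5 members that were not 2-fold apart were Fgf4 (-0.53), Nanog (-0.42), Tbx3 (-0.19), Esrrb (-0.19) and Sall4 (0.06).

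For 2 of these 5 the choice of probe set mattered. The brightest probe set of Esrrb, an orphan nuclear receptor of the naive network, gave -0.19, whereas another went from 370 to 39.0 in DKK (-2.71) and from 362 to 33.3 with dox. For Tbx3, a T-box factor, another probe set read 140 and 25.5 (-1.80), and it read 130 and 37.6 in DKK + dox. The probe sets of both genes therefore disagree on how much lower the transcript was at 12 hours. For Klf4 and Nr5a2 all other probe sets above the low-signal limit were also lower (-2.38 for Klf4, -2.08 and -1.41 for Nr5a2), while for Klf5 the other ones gave -0.46 and -0.14. At 6, 12 and 24 hours Nanog read 1832, 1362 and 1791 without dox, then 1711, 706 and 1827 with it, lowest at 12 hours in both.

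Core pluripotency genes stayed near their 6-hour level. None of the 13 measured was 2-fold apart, and their median was 0.06. Pou5f1 read 6046 and 6764 (0.16) and Sox2 read 5991 and 5599 (-0.10), both among the brightest genes of the arrays. The sign of the Sox2 difference turned to 0.06 when arrays were centred on the median. Utf1, a chromatin-bound ESC factor, read 4077 and 4706. The bright signals of Pou5f1, Sox2, Nanog, Zfp42 and Dppa5a at 6 hours matched the labelled cell type.

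ES cell markers with no single shared role divided into a group that was much lower and a group that was not. Of 21 measured, 10 were at least 2-fold lower and none higher (median -0.65). Jam2, a junctional adhesion molecule, went from 519 to 61.1 (-2.72), and its 4 other probe sets above the limit were lower by -2.65 to -0.89. Fbxo15, an F-box protein and Oct4 target, went from 908 to 134 (-2.58), Morc1 from 663 to 94.0 (-2.58) and Ooep, a maternal-effect gene, from 1151 to 190 (-2.48). All of these were lower again at 24 hours, Fbxo15 at 49.4 and Morc1 at 35.2. Dppa5a, Dppa2, Dppa4, Tdgf1 and Lin28a differed by less than 2-fold (-0.51 to 0.10). Dppa3 read 77.3 and 47.3 (-0.53), and Pecam1 was under the low-signal limit on both arrays, at 19.9 and 14.0.

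**Figure D3:**
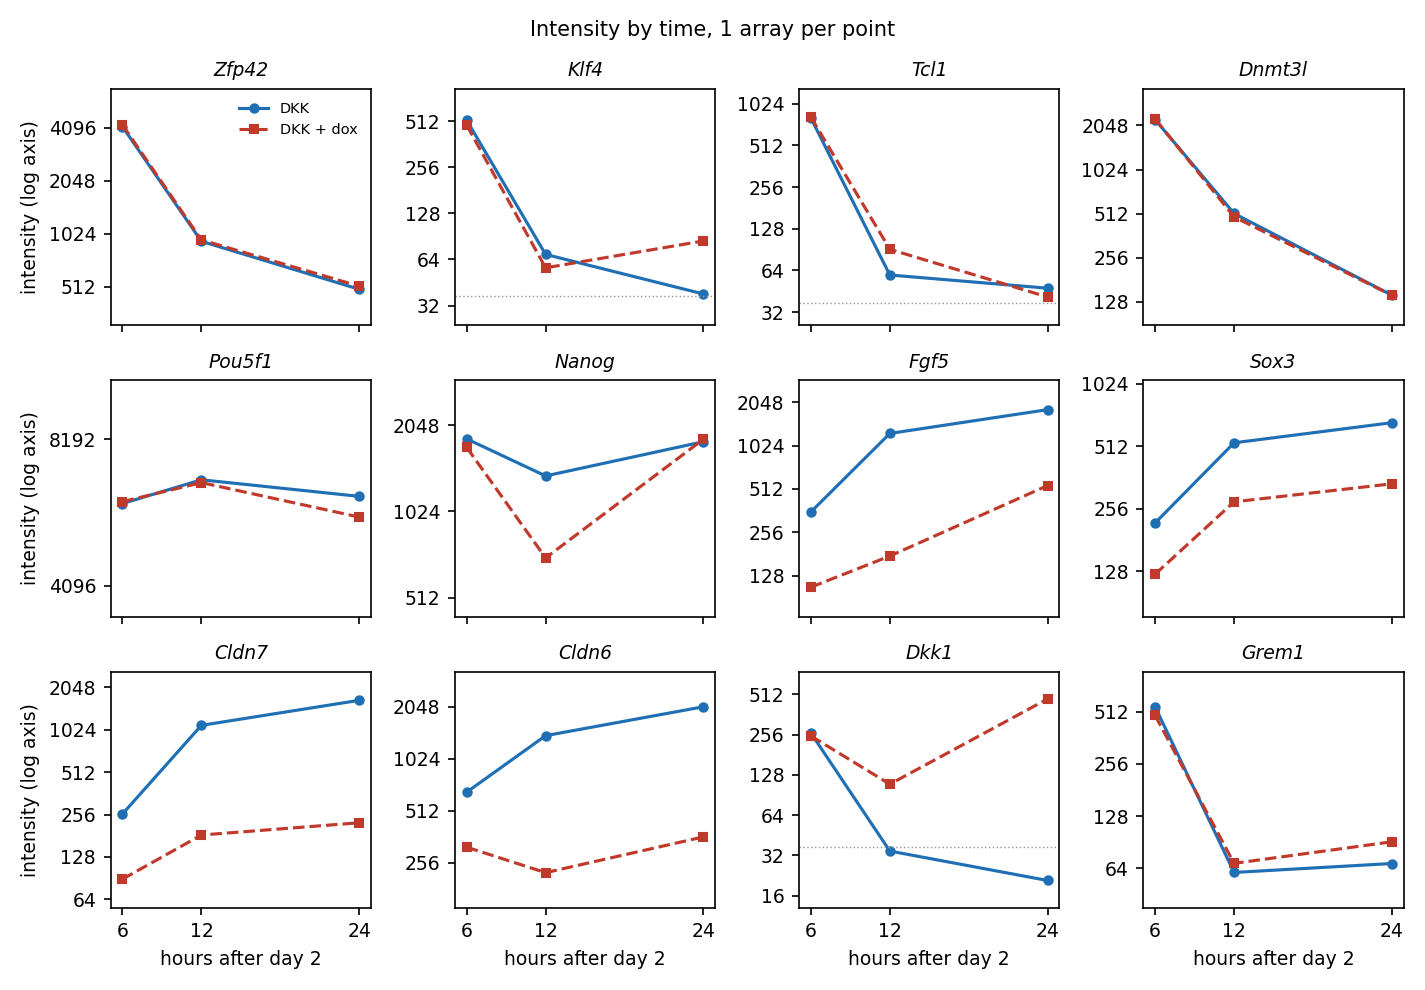
Intensity (log scale) at 6, 12 and 24 hours for 12 genes in DKK (circles, solid line) and in DKK + dox (squares, dashed line), with 1 array per point and a dotted line at the low-signal limit of 37.2 where it falls in the panel. Zfp42, Klf4, Tcl1 and Dnmt3l are lower at 12 than at 6 hours in both conditions, Fgf5 and Cldn7 are higher at 12 hours and highest in DKK, and Pou5f1 reads 6046 and 6764 in DKK.

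The LIF receptor pathway, which acts through Jak kinases and Stat3 to hold the naive state, was lower at most steps. Of 18 measured genes, 16 were lower and 4 at least 2-fold lower, with a median of -0.72. The receptor chain Lifr went from 1575 to 656 (-1.24) and its partner Il6st (gp130) differed by -0.90. Stat3 itself went from 532 to 219 (-1.20), and its other probe sets gave -0.71 and -0.43. Among the targets of Stat3, the feedback inhibitor Socs3 went from 349 to 124 (-1.36), Bcl3 differed by -0.92 and Pim3 by -0.78. The kinases Jak1 (-0.03) and Jak2 (0.23) were near their 6-hour levels. Lifr was the member with the clearest contrast between conditions, at -0.35 in DKK + dox (1865 and 1457).

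Of 13 DNA methylation genes, 4 were at least 2-fold lower and none higher, with a median of -0.70. Dnmt3l, a cofactor without catalytic activity that stimulates the de novo enzymes, went from 2238 to 514 and then 142 at 24 hours, differences of -2.08 and -1.71. Tet2, an enzyme that oxidises methylcytosine, went from 255 to 74.3 (-1.54), and Tet1 and Tet3 differed by -0.70 and -0.80. Another bright probe set of Tet1 read 1873 and 788 (-1.23). The methyltransferases Dnmt3b (0.25), Dnmt1 (0.29) and Dnmt3a (-0.02) were within 2-fold, and the other probe sets of Dnmt3a gave -0.51 to 0.41. Besides Dnmt3l and Tet2, the 2-fold lower genes were Zfp57 and Prdm14 of the naive list. The glycosylase Mbd4 differed by -0.76, and Hells and Uhrf1, which help maintain methylation, by -0.16 and -0.14.

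Epiblast and formative genes were higher on balance. Of 28 measured, 6 were at least 2-fold higher and 1 lower, with a median of 0.42, beside 1.86 and 4.57 percent of all genes. Fgf5, the secreted factor that marks the epiblast, read 354 at 6 hours, 1244 at 12 hours and 1821 at 24 hours (1.75 for the first interval), and another probe set went from 71.3 to 240. Fgf8, an FGF ligand of the epiblast and streak, read 24.3, under the low-signal limit, and then 162 and 148 (2.03). Car14, a carbonic anhydrase, went from 169 to 480 (1.40), the zinc finger factor Sall2 from 353 to 827 (1.18) and the tight junction protein Cldn6 from 655 to 1393 (1.06). Sox3, a SoxB1 factor, went from 219 to 533 (1.21), although another probe set read 372 and 263 (-0.47).

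The promoter window of Fgf5 is given beside those of the naive genes because Fgf5 moved in the opposite direction. It lies at chr5:98253934-98254183 on the plus strand of GRCm38.p6, with capitals as above.
Fgf5: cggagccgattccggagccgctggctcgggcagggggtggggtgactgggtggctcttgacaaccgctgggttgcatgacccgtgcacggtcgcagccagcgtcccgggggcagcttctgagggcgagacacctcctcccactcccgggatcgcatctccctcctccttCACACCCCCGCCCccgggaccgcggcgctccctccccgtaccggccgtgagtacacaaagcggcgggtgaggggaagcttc
It too held a GGGTGTG and a GC box, side by side on the opposite strand.

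Other epiblast genes were higher by less than 2-fold. Otx2, a homeobox factor of the epiblast, read 1065 and 1633 (0.61), and Zic5 read 1354 and 2258 (0.73), with its other probe sets at 0.36 and 0.28. Pou3f1 (Oct6) differed by 0.37, Sox11 by 0.65 and Sox4 by 0.50. Other probe sets above the limit gave 0.08 for Pou3f1, 0.49 to 1.13 for Sox11 and -0.16 to 0.39 for Sox4. Of the 8 genes of the list that were lower, 4 belong to Nodal signaling (Lefty2 at -1.15, Cer1 at -0.96, Lefty1 at -0.75 and Nodal at -0.24). The others were the FGF effector Etv4 (-0.94), the adhesion molecule Ncam1 (-0.88), the Wnt effector Lef1 (-0.72) and Dnmt3a (-0.02). Etv5, a relative of Etv4, was higher, from 1288 to 2216 (0.77).

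Of 21 FGF/ERK feedback genes, 2 were at least 2-fold higher and none lower, with a median of 0.13. The 2 higher genes make 9.52 percent, against 1.86 percent of all genes. They were Fgf5 and Fgf8, already counted in the epiblast list. The receptor Fgfr1 went from 255 to 480 (0.86), with other probe sets at 1.15 and 0.84, while Fgfr2, Fgfr3 and Fgfr4 differed by -0.10, -0.07 and -0.31. Fgf4, the ligand made by naive cells, was lower by -0.53 on its brightest probe set and by -0.55 and -0.51 on the others. The list thus held a lower Fgf4 beside higher Fgf5 and Fgf8. Among the inhibitors, Dusp6 (0.61) and Spry1 (0.51) were higher and Spry4 (-0.20) and Dusp4 (-0.45) lower, all within 2-fold.

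Several ligands and secreted inhibitors of the TGF-beta and Wnt families were much lower at 12 hours. Inhbb, a subunit of activin B, went from 263 to 17.6 (-2.89), and Inhba from 66.1 to 22.7. Lefty2, a feedback inhibitor of Nodal, went from 2179 to 971 (-1.15), while Nodal itself read 1766 and 1495 (-0.24). Those 3 were the only members of the 20 Nodal and activin genes that were 2-fold apart, and the median of the list was -0.11 (0.05 with arrays centred on the median). Grem1, a secreted BMP antagonist, went from 545 to 60.5 (-2.80), and the ligand Bmp4 from 410 to 131 (-1.51). The inhibitory Smad6 went from 246 to 81.5 (-1.38), whereas the transducer Smad1 was higher, from 428 to 752 (0.79), as was the target Id2 (0.71). Of 23 BMP genes 3 were thus lower, none higher, and the median was 0.13.

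In the Wnt list, Dkk1, the endogenous gene for the inhibitor added to the medium, went from 262 to 34.5 and then 20.8 (-2.36 for the first interval). Nkd1, an intracellular antagonist and Wnt target, gave -1.09 (another probe set, dim, gave 0.57), and Axin2 and Lef1, further targets of beta-catenin, gave -0.74 and -0.72. The receptor Fzd2 went from 441 to 901, which on the log2 scale with the offset was just short of 2-fold, and Tcf7l2, a transcription factor of the pathway, differed by 0.97. Of 27 genes measured, 3 (11.1 percent, against 4.57 percent of all genes) were at least 2-fold lower and none higher, with a median of -0.10 (0.06 with arrays centred). The third was the ligand Wnt5a, dim at 51.0 and 11.7.

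Genes of epithelial junctions and polarity were higher at 12 hours. Of 43 measured, 32 were higher, 9 of them at least 2-fold, and 1 was at least 2-fold lower, with a median of 0.39 (0.37 to 0.55 over the alternatives). Cldn7, a claudin of tight junctions, went from 258 to 1099 and then 1655 (2.00 for the first interval). Marveld2 (tricellulin), which seals junctions where 3 cells meet, went from 90.2 to 334 (1.68), and Dsc2, a desmosomal cadherin, from 30.1 to 145 (1.71). Ap1m2, the epithelial subunit of a sorting adaptor, went from 117 to 444 (1.76), and the simple-epithelium keratins Krt8 and Krt18 differed by 1.28 and 1.10. All 3 probe sets of Krt8 were higher (1.28 to 1.42). For other members, probe sets beside the brightest ran both ways. Marveld3 had one at 1.64 and Crb3 one at 1.34, whereas Dsp had one at -1.88 (164 to 29.6). Grhl2 had one at -1.06, against 0.24 on its brightest probe set. Esrp1, which controls epithelial splicing, differed by 1.01, Ocln by 0.84 and Epcam by 0.71. Cdh1 (E-cadherin), already bright, read 4481 and 5957 (0.41). The other 11 genes were lower. Grhl3, a transcription factor of surface epithelium, went from 143 to 32.6 (-1.62), and the epithelial factors Ehf and Elf3 differed by -0.97 and -0.94, short of 2-fold. The gain did not extend to whole families, counted in the list or not. Of 34 keratins measured, 2 were at least 2-fold higher and 6 lower, with a median of -0.35. Of 17 claudins, 2 were at least 2-fold higher and none lower, with a median of -0.32.

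Mesenchymal and matrix genes moved the other way on balance, with 10 of 38 at least 2-fold lower, 3 higher and a median of -0.35. The calcium-binding S100a6 went from 1922 to 326 (-2.49), and the annexins Anxa1 and Anxa2 from 866 to 175 (-2.18) and from 929 to 255 (-1.78). Fn1 (fibronectin) went from 1914 to 791 (-1.25) and Tgfbi, a matrix protein induced by TGF-beta, from 245 to 68.7 (-1.57). All 3 other probe sets of Tgfbi were lower by -1.30 to -1.04. Zeb1, a repressor of Cdh1, went from 155 to 75.6 (-0.87), and Snai1 was under the low-signal limit at 32.9 and 16.6. The 3 higher genes were Tagln (120 to 567, 2.06) and Tpm1 (1.17), which act in the actin cytoskeleton, and the neural cadherin Cdh2 (1.03, but 0.01 on another probe set). Vim (-0.38), Twist1 (0.43) and Zeb2 (0.21) were within 2-fold.

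**Figure D4:**
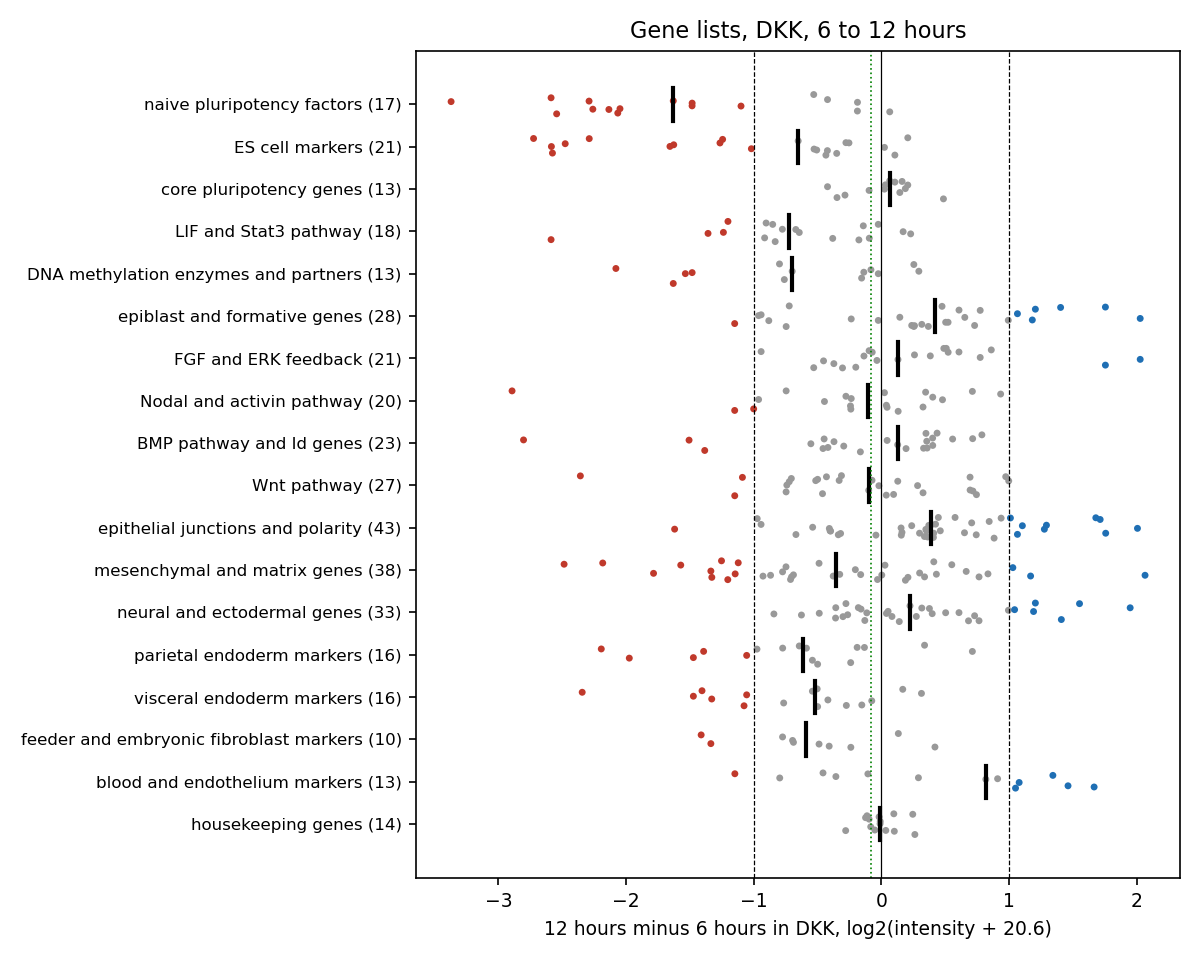
Log2 difference from 6 to 12 hours in DKK for each measured member (points, red where at least 2-fold lower and blue where at least 2-fold higher) of 18 gene lists, with the number of members in parentheses, list medians as thick bars, dashed lines at a 2-fold difference and a dotted line at the median of all genes. The naive factors lie furthest to the left with a median of -1.63, and the epiblast and epithelial medians are at 0.42 and 0.39.

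Of 33 neural and ectodermal genes, 6 were at least 2-fold higher and none lower, with a median of 0.22. They were Dcx and the neurofilament Nefm (63.3 to 225), the intermediate filament Nes (43.8 to 150), Map2 (62.4 to 169), Sox3 and the retinoic acid binding protein Crabp2 (146 to 323). Dcx read 6.21 and 82.8, and other probe sets of Dcx and Nes ran the other way (-0.53 and -0.64). Sox1, an early neural plate factor, differed by -0.30. In the primitive streak list 1 of 13 genes was at least 2-fold higher (Fgf8) and 1 lower (Foxa2, 66.7 to 14.1). Each makes 7.69 percent, against 1.86 percent higher and 4.57 percent lower over all genes. Eomes differed by 0.11 and Mixl1 by 0.00. The median of the list, -0.24, became -0.08 with arrays centred and -0.48 with no filter.

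Markers of extraembryonic endoderm were lower. Of 16 measured parietal endoderm markers, 5 were at least 2-fold lower and none higher (median -0.62), and of 16 visceral endoderm markers 6 were lower and none higher (median -0.52) (Sox17 and Dab2 counted in both). The summed intensity of the parietal list was 6386 at 6 hours and 4994 at 12 hours in DKK, against 6152 and 5503 in DKK + dox. That of the visceral list was 5651 and 3423, against 5230 and 2900. A few bright genes weighed heavily in these sums. In DKK, Apoe of the visceral list read 2746 and 1931. In the parietal list Lamb1 read 1635 and 1380, and Sparc was higher at 12 hours, at 1322 and 1675. Cubn, an endocytic receptor of visceral endoderm, went from 472 to 76.4, Lama1, a laminin chain, from 271 to 43.1, and the endoderm factors Sox7 and Sox17 from 272 to 53.9 and from 307 to 97.3. Another probe set of Sox17 gave -0.27. Several defining markers were dim: Gata4 read 64.2 and 37.7, Hnf4a 65.1 and 50.2, and Afp 22.1 and 8.15, under the limit. Gata6 was brighter, at 111 and 72.6, and its other probe sets gave -1.39 and -1.32. The part of fewer endoderm cells in these values was not tested.

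Markers of the feeder fibroblasts ranged from under the low-signal limit to moderate readings, the brightest being Fbln1, at 281 and 309 in DKK. Of 15 listed, 5 (Lum, Postn, Prrx1, Meox2 and Fap) were under the low-signal limit on all 6 arrays, and the 15 together summed to 1302 at 6 hours and 888 at 12 hours in DKK, and to 1195 and 1327 in DKK + dox. Col1a1 and Fbln2 were at least 2-fold lower (177 to 57.7 and 110 to 28.6), and Thy1 was slightly higher (57.8 to 84.2). The part of these markers in the lower mesenchymal values, where Col1a1 is also a member, was not tested.

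Blood and endothelial markers gave 5 of 13 at least 2-fold higher and 1 lower. The median of 0.82 depended on dim genes, since it was 0.09 over the genes above the low-signal limit on both DKK arrays. Not every rise was in a dim gene. Etv2, the brightest member at 12 hours in DKK, went from 354 to 640, short of 2-fold, and read 389 at 24 hours. In DKK + dox, Etv2 read 498 at 6 hours, 2572 at 12 hours and 1257 at 24 hours. Lmo2 and Gata2, transcription factors of blood progenitors, went from 84.4 to 269 and from 41.8 to 109, and both were lower again at 24 hours, at 154 and 41.4. Tal1 and Fli1 gave the same pattern, at 26.5, 78.9 and 39.0 and at 10.6, 58.4 and 20.9. These 4 genes were therefore highest at 12 hours among the DKK arrays. In DKK + dox, Gata2 read 359 at 12 hours and 646 at 24 hours. The other higher gene, Ptprc, read 1 at 6 hours and 47.9 at 12 hours in DKK. The lower gene was Runx1, from 369 to 155 in DKK (-1.15), with other probe sets at -1.49 and -1.06. At 6 hours Runx1 was brighter than Lmo2, Gata2, Tal1 and Fli1. Cardiac and lateral mesoderm markers had 2 of 14 at least 2-fold lower (Pdgfra and Myl4; 14.3 percent, against 4.57 percent of all genes) and none higher. Trophoblast markers had none of 8 either way.

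Among all genes with the same sign in DKK + dox, the largest decrease after Trim9 was that of Mymx, a short protein known for muscle cell fusion, from 1002 to 54.6 (-3.76). Trim9 read 561, 1 and 310 at the 3 times without dox, but 527, 214 and 343 with it, so its difference of -4.75 rests on a single reading at the lowest value. Then came Tcl1, the membrane protein Emp1 (421 to 34.8), the lectin Lgals3 (846 to 92.9, and 40.8 at 24 hours), Inhbb, 6330415G19Rik (275 to 20.3), Phf11d (563 to 61.0), Grem1, the proteoglycan Srgn (1644 to 218) and the transporter Abca4 (520 to 59.5). Jam2, Klf4, Fbxo15 and Morc1 closed the 15. Apart from Trim9, all of them read 263 or more at 6 hours and 218 or less at 12 hours.

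Several of the largest increases started from dim readings. Il27ra, Trim40 and Rasl10b read 1 at 6 hours and 145, 62.6 and 54.7 at 12 hours, and Rbp3 went from 3.34 to 167, but from 128 to 175 with dox. Those measured above the limit at both times were Slc39a8, a zinc and manganese transporter (161 to 787, 2.15), Tagln, Prickle1, a planar polarity protein (121 to 562, 2.05), Cldn7, Cntfr, a receptor chain for ciliary neurotrophic factor (52.4 to 257), Myl9, a myosin light chain (131 to 541), and Speg (71.2 to 302). Another probe set of Prickle1 ran the other way (-0.51). Slc39a8 went on to 1070 at 24 hours and Cntfr read 229. Pcdh17, Kcnq3, Lratd1 and Fgf8 completed the 15, each under the limit at 6 hours.

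The DKK + dox cultures gave a second reading of the same hours on other arrays, in cells given dox. The probe set of Snai1 stayed under the low-signal limit with dox too, at 29.6, 18.8 and 14.5 over the 3 times, next to 32.9, 16.6 and 10.9 without it, so it showed no induction. Whether this probe set reads the transgene is not known here, so it gives no check of the labels. They had 455 genes at least 2-fold lower (3.08 percent) and 411 higher (2.79 percent), with a median of -0.036. Of the 674 genes lower in DKK, 229 (34.0 percent) were also at least 2-fold lower in DKK + dox, where they made up 50.3 percent of the lower genes, and 599 (88.9 percent) had the same sign. Of the 275 higher genes, 135 (49.1 percent) were also at least 2-fold higher, 32.8 percent of that list, and 254 (92.4 percent) had the same sign. The 674 had a median of -1.23 in DKK and -0.69 in DKK + dox, and the 275 had 1.21 and 0.98. The overlap holds both the passage of time and anything shared by the 6-hour arrays.

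The groups differed in how closely the conditions matched. The naive factors had a median of -1.63 in DKK and -1.83 in DKK + dox, and Zfp42 read 4237 and 944 with dox, next to 4141 and 927 without. Nr0b1 (-3.12), Fbxo15 (-2.49), Dnmt3l (-2.17), Grem1 (-2.51) and Sox7 (-1.98) also lay within 1 log2 unit of their DKK values. The epithelial list had a median of 0.39 in DKK and -0.23 with dox. With dox, Marveld2 gained little (0.16) and Cldn6 (-0.45) and Cdh1 (-0.27) were lower, while Krt8 (1.62) and Dsc2 (1.18) were higher in both. The steps start from unlike levels, since the list summed to 18122 with dox at 6 hours, against 23334 in DKK. Marveld2, Cldn6 and Cdh1 read 43.0, 314 and 3464 with dox at 6 hours, against 90.2, 655 and 4481 in DKK. Fgf8 (0.15), Anxa2 (-0.06) and Smad6 (-0.05) differed by under 2-fold with dox and by more in DKK. Tgfbi ran in opposite directions, from 245 to 68.7 in DKK (-1.57) and from 369 to 628 with dox (0.73). Its other probe sets were also lower in DKK and higher with dox. Fgf5 read 106 and 175 with dox, below its DKK value at both times. None of these contrasts could be tested with 1 array per condition and time.

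**Figure D5:**
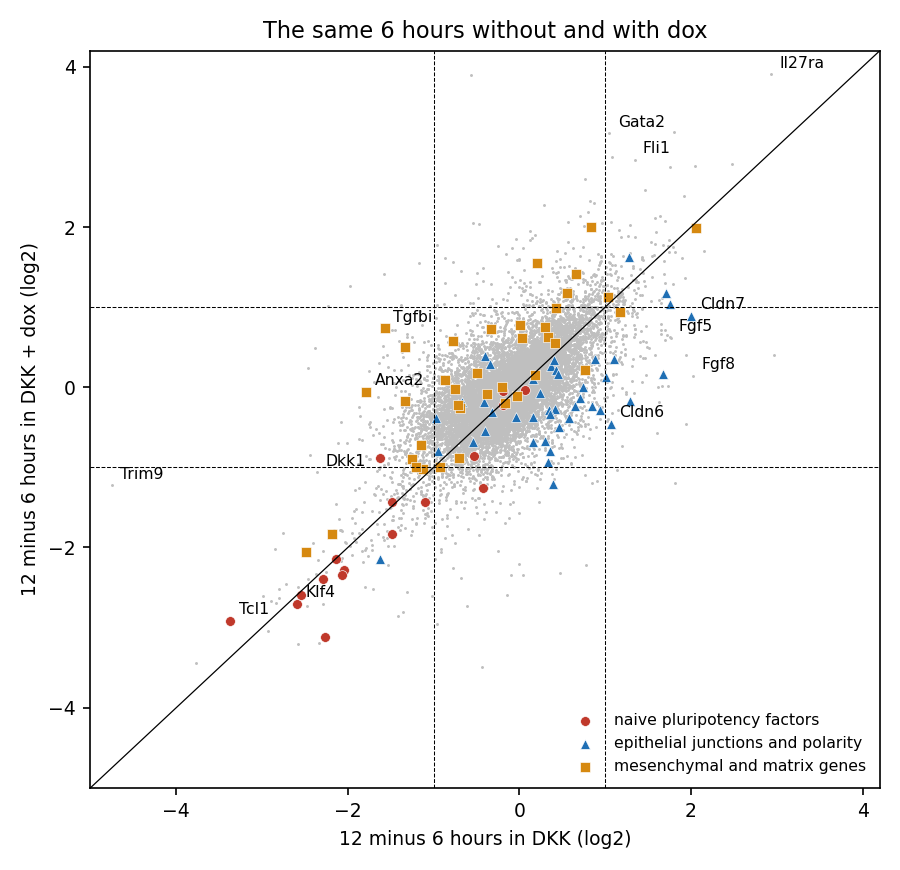
Log2 difference from 6 to 12 hours in DKK (horizontal) against that in DKK + dox (vertical) for 14755 genes, from 4 separate arrays, with dashed lines at a 2-fold difference, a solid line where both are equal, and naive, epithelial and mesenchymal genes marked. Tcl1 and Klf4 lie near the solid line (-3.37 and -2.91, -2.59 and -2.70), while Tgfbi and Anxa2 lie above it and Fgf8 and Cldn6 below it.

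Where a gene had further probe sets, these mostly pointed the same way but with smaller values. For 197 of the lower genes, 266 of 304 other probe sets (87.5 percent) had the same sign, with a median of -0.57, and 84 (27.6 percent) were also 2-fold lower. For 124 of the higher genes, 146 of 208 (70.2 percent) had the same sign, with a median of 0.50, and 46 (22.1 percent) were 2-fold higher. Over all genes the figures were 62.4 percent and 3.31 percent. The lower genes thus had other probe sets of the same sign more often than the higher ones, a difference that was not tested. Over all genes, 58.0 percent were lower at 12 hours, so a lower sign was the more frequent one in any case. The figures over all genes were not divided by direction, so the 2 shares have no separate baselines.

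Promoter windows of 250 bases could be matched for 491 of the 674 lower genes and 211 of the 275 higher ones. The GC box GGGCGGG was present in 30.1 percent of the lower genes, 48.8 percent of the higher genes, 44.4 percent of all 11753 genes of the arrays with a window, and 23.4 percent of all 32851 windows in the table, with a gene counted where any of its windows held the motif. GGGTGTG was present in 9.78 and 8.53 percent against 8.78 percent of the genes on the arrays. The Esrrb-type AAGGTCA (3.46 and 1.90 against 3.68 percent), the E-box (9.98 and 6.16 against 9.33 percent) and the CRE (2.85 and 4.74 against 4.87 percent) differed by less than the GC box did. Of 10 naive factors with a window and a 2-fold lower value, 4 held a GC box.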

How the data were processed

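Affymetrix MOE430_2.0 arrays of A2.Snail cultures were processed by the authors with dChip (normalization and modeling; version and model not given in the sources used). The deposited values were linear intensities, none under 1. The deposited value table held 45037 probe sets on 6 arrays: 34945 had 1 gene symbol in the platform annotation, 932 several and 9160 none. By Entrez ID, 34741 matched RefSeq genes of GRCm38.p6 and 0 symbols changed. A gene with several probe sets was read from the one of highest mean, and 3438 of 18193 genes never above 37.2 (the pooled 40th percentile) were left out. Differences were taken on log2(intensity + 20.6), the offset being the pooled 25th percentile, in Python 3.11.15 with pandas 2.3.3, numpy 2.4.6 and matplotlib 3.10.9. The calculation was tested on simulated data. With 1 array per condition and time there was no test, and the number of arrays limits the precision. DKK and DKK + dox from 6 to 12 hours share no array.

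The genes and lists were chosen with earlier results of these data known. Named were the 15 largest increases and decreases with the same sign in DKK + dox, up to 5 members of each list, genes the study discusses and 5 genes of opposite sign between conditions; further list members were named after their values were seen. Alternatives changed the offset, the filter, the normalization and the choice of probe set.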

Additional observations from a re-analysis of the deposited data

Results flagged for a closer look

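Some genes and lists ran in opposite directions from 6 to 12 hours in DKK and in DKK + dox; with 1 array per condition and time, the difference between conditions was not tested for any of them. In all, 7 genes were at least 2-fold lower in one condition and at least 2-fold higher in the other, of which the 5 with the widest gap are given. Gkn2, a gastrokine, went from 250 to 48.3 in DKK (-1.97) and from 58.3 to 169 with dox (1.26). Pde3a, a cyclic nucleotide phosphodiesterase, went from 287 to 82.7 in DKK (-1.57) and, with dox, had 194 at 12 hours (1.41); with its probe sets averaged, the DKK difference was 0.01 and no longer 2-fold. The other 3 each rest on a reading of 1 on a 6-hour or 12-hour array. Nccrp1 differed by -2.23 in DKK and 1.01 with dox, Cd177 by 1.81 and -1.19, and Ppm1e by -1.17 and 1.55.

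Among the lists, epithelial junctions and polarity had a median of 0.39 in DKK and -0.23 in DKK + dox, and mesenchymal and matrix genes had -0.35 and 0.16. Feeder and embryonic fibroblast markers had -0.59 and 0.13, and primitive streak and nascent mesoderm genes had -0.24 and 0.15.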

How the results depend on the processing

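The balance of lower and higher genes depended on the processing more than the naive list did, whose median stayed between -2.13 and -1.47. The 275 higher and 674 lower genes became 516 and 1251 with an offset of 1, 468 and 406 with arrays centred on the median, and 152 and 443 when a gene's probe sets were averaged, and 445 were lower with the offset at the pooled 40th percentile. The other 13 recounts, which include quantile normalization, 4 filters (1 of them, both DKK arrays above the limit, chosen after seeing the data) and only plain probe sets, stayed within 1.5 times. Of 1772 recomputed differences over 204 named genes, 1639 kept within the limit, 131 moved, and 2 values of genes that had been at least 2-fold apart changed sign: Pde3a came to 0.01 when its probe sets were averaged, and Smarca2 to -0.24 with only plain probe sets. Of 340 recomputed list medians, 87 moved. Centring arrays on the median moved the most, 22 of the 34 list medians, and left 12 within the limit. Using only plain probe sets moved 15 and averaging a gene's probe sets moved 12. The list medians given above, unless marked, are therefore those of the deposited level of the arrays. The cause was not tested. Signal limited 209 of the lower and 80 of the higher genes, which were under the low-signal limit on at least 1 of the 2 DKK arrays. Some, such as Ppm1e (27.9 and 1), were under it on both and were kept through other arrays. No paired analysis was possible because each condition and time has 1 array, and for the same reason no array could be left out.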

Other observations

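Germline genes were lower as a group from 6 to 12 hours in DKK, with 6 of 26 at least 2-fold lower, none higher and a median of -0.42. Besides Dnmt3l these were the homeobox gene Rhox5 (2804 to 938), the meiotic protein Hormad1 (261 to 79.1), Tex19.1 (1383 to 572), Dmrt1 (-1.20) and Mov10l1 (118 to 35.6), and all but Mov10l1 (0.27) were also lower in DKK + dox. Imprinted genes divided: Igf2 went from 48.6 to 214, Magel2 from 227 to 660, and Gnas (0.98), Peg12 (0.88), Ndn (0.82) and Grb10 (0.82) were higher by less than 2-fold, while Cdkn1c went from 2778 to 1263. All 7 other probe sets of Ndn were higher, by 0.53 to 1.21, whereas those of Gnas gave -0.24 and 0.07. Another probe set of Igf2 read 46.8 and 67.9 in DKK (0.39), and 71.0 and 61.5 with dox.

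Metallothioneins were lower, Mt1 from 3476 to 1368 and Mt2 from 4157 to 1891, as were the antioxidant genes Nqo1 (1221 to 454) and Gpx4 (4528 to 2178), 4 of 17 genes in that list. The small heat shock protein Hspb1 went from 6685 to 2213 (-1.59, and -1.58 on another probe set), while the other 14 heat shock genes were within 2-fold on the probe set used. Of these, Cryab gave -0.69, but its other probe sets gave -1.51 and -1.55. Epas1 (Hif2a) went from 1695 to 650 and 267 at the 3 times. The glycolysis and hypoxia list that holds it had 2 of 36 lower (5.56 percent, near the 4.57 percent of all genes) and a median of -0.13. Of 18 retinoic acid and vitamin A genes, 3 (16.7 percent) were at least 2-fold lower and 1 (Crabp2, 5.56 percent) higher, with a median of -0.16. The 3 were the synthetic enzymes Aldh1a2 (132 to 46.5) and Aldh1a3 (1094 to 507) and Stra8, a retinoic acid target in germ cells (109 to 28.9). Amino acid and ER stress genes had 21 of 27 lower, 1 of them at least 2-fold (Nupr1), with a median of -0.35. Jun, alone of 22 immediate early genes, was at least 2-fold higher (122 to 336). Of 45 cell cycle genes 4 were at least 2-fold lower (Cdkn1c, E2f2, Mybl2 and Ccnd2) and none higher, with a median of -0.07. These 4 make 8.89 percent, against 4.57 percent of all genes. Ccnd2 read 492 and 223 in DKK but 531 and 680 in DKK + dox. Of 39 chromatin regulators, Smarca2 (4.97 to 53.9) and Hdac9 (55.1 to 173) were at least 2-fold higher, each with another probe set that ran the other way. Cholesterol synthesis genes (median -0.08), p53 target genes (0.09; Pmaip1 at 1.18) and 5 cleavage-stage genes (-0.68) had no more than 1 gene 2-fold apart.

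Probe sets with several gene symbols or none, which entered no comparison, had 5235 of 10092 above the low-signal limit. Of these, 316 (6.04 percent) were at least 2-fold lower and 39 (0.745 percent) at least 2-fold higher at 12 than at 6 hours in DKK, against 161 and 71 in DKK + dox.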
